A study of Mus musculus with 22 samples.

Results

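The comparison described here set ribosome-bound RNA of striatal D1 neurons against the RNA of the lysate it was drawn from, in mice mutant for Fmr1. It used 10 of the 22 libraries of the series, 5 pulldowns labelled KO_IP and 5 inputs labelled KO_Total, chosen by their group labels and paired by the animal numbers 2, 3, 9, 10 and 11. All animals, the controls included, carried an EGFP-tagged form of the ribosomal protein Rpl10a in medium spiny neurons that express the dopamine receptor Drd1. The labels give the genotype of these 5 animals as FMRP mutant and the wild-type animals, 6 in number, as WT. The labels give no allele, promoter construct, strain, age, sex or treatment, and the protocol calls the mutants FXS model mice, after fragile X syndrome. The striata were homogenised in cycloheximide, which holds ribosomes on the mRNA, and nuclei and insoluble membranes were spun out before both libraries were made. The input is therefore a cleared lysate and not whole tissue.

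In translating ribosome affinity purification a tagged ribosomal protein is made in 1 cell type, so that an antibody against the tag draws out that cell type's ribosomes with the mRNAs they carry. The projection neurons of the striatum fall into D1 neurons, which express Drd1, dynorphin and substance P and send axons to the substantia nigra, and D2 neurons, which express Drd2, the adenosine receptor gene Adora2a and enkephalin and project to the external pallidum. FMRP, the product of Fmr1, binds RNA and polyribosomes and is known as a repressor of translation of many long neuronal mRNAs. A ratio of pulldown to input mixes cell type and ribosome loading. An mRNA can be high in it because D1 neurons hold more of it than the other cells of the lysate, or because more of it is on ribosomes, and these cannot be told apart here. In such bulk libraries fewer cells of a type and less RNA per cell cannot be told apart either. All values below are relative to the other RNAs of a library and do not measure amounts of RNA.

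The mutant pulldowns held 13759027 to 49669222 counts and the inputs 28438717 to 43276230. Mitochondrial ribosomal RNA took 0.420% to 0.904% of the counts in pulldowns and 30.6% to 53.2% in inputs, with the highest share in the input of animal 10. Protein-coding genes took 96.0% to 96.9% of pulldown counts and 44.2% to 66.6% of input counts. Fmr1 itself still gave reads in every mutant library, 150 to 623 in pulldowns and 255 to 542 in inputs, so the genotype label does not stand for a missing transcript in these counts. The wild-type level of Fmr1 is not given here, and counts per gene do not show whether the mutant RNA is whole. Animals 3 and 9 stood apart from the other 3 mutants by markers of cortical excitatory neurons in both of their libraries, with values given further on. Results on cell types are therefore also given by animal. Where it mattered, they are given from a fit without animals 3 and 9 and the wild-type animals 1 and 12, called here the fit without the cortex-marked animals.

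The labelled cell type was checked against its markers first. Levels are CPM, counts relative to library size, after TMM scaling over all 22 libraries, and values by animal are given in the order 2, 3, 9, 10 and 11. Drd1, the receptor that defines the tagged neurons, lay at 483, 607, 545, 565 and 592 CPM in pulldowns and at 172, 187, 146, 221 and 187 CPM in the matching inputs. Every pulldown stood above every input, and the ratio was 3.07-fold (log2 fold change 1.62 ± 0.09 SE, n = 5 pairs, adjusted p = 1.16e-11 by edgeR's quasi-likelihood test, which is the source of all adjusted p-values here unless another tool is named). Isl1, a LIM homeodomain factor of D1 neurons, lay at 37.1, 27.2, 42.8, 41.3 and 39.0 CPM in pulldowns and at 14.9, 9.88, 5.34, 12.7 and 10.1 CPM in inputs. The groups did not overlap, and the log2 fold change was 1.86 ± 0.18. Ebf1, a transcription factor needed by D1 neurons, lay between 87.1 and 133 CPM in pulldowns and between 23.8 and 40.8 CPM in inputs, a log2 fold change of 1.81 ± 0.08. Drd2, the receptor of the other projection neurons, went the opposite way. It lay at 15.1, 24.4, 17.3, 23.7 and 17.3 CPM in pulldowns and at 225, 241, 154, 259 and 255 CPM in inputs, and was 11.6-fold lower in pulldowns (log2 fold change -3.54 ± 0.12, adjusted p = 1.31e-13). The markers therefore matched the label in each of the 5 animals.

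The rest of the D1 and D2 lists followed the same split. All 10 D1 genes were higher in pulldowns, where 23.0% of all 17311 genes tested were called higher, with a median log2 fold change of 1.63 beside -0.11 for all genes tested. The gene with the highest fold among them was Chrm4, the muscarinic M4 receptor that opposes Drd1 signalling, at 16.1 to 22.5 CPM in pulldowns and 3.56 to 6.32 CPM in inputs (log2 fold change 2.02 ± 0.18). Eya1, a transcriptional coactivator and phosphatase, was the most abundant, at 621 to 758 CPM in pulldowns and 161 to 248 CPM in inputs (1.69 ± 0.07). Slc35d3, a nucleotide sugar transporter that takes part in Drd1 trafficking, had a log2 fold change of 1.65 ± 0.14. The peptide genes Pdyn, the dynorphin precursor, and Tac1, the substance P precursor, were higher by 1.39 ± 0.08 and 0.96 ± 0.08. Sfxn1, a mitochondrial serine transporter, and Zfp521, a zinc finger cofactor, had the lowest values of the list, 0.83 ± 0.05 and 0.47 ± 0.11. The lowest pulldown of Zfp521 was 22.5 CPM and the highest input 22.1 CPM, so that its groups only just separated.

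All 7 D2 genes in the tables were lower in pulldowns, where 28.5% of all genes tested were called lower, with a median of -3.74. Adora2a, an adenosine receptor that opposes Drd2, lay at 3.72 to 6.33 CPM in pulldowns and 61.8 to 103 CPM in inputs, and was 18.0-fold lower. Penk, the enkephalin precursor, lay at 20.2 to 41.3 CPM in pulldowns and 240 to 470 CPM in inputs, and was 13.5-fold lower. Gpr6, a receptor of the D2 pathway, and Sp9, a zinc finger factor of D2 neurons, had log2 fold changes of -3.74 ± 0.26 and -2.59 ± 0.23. Ttc12, which lies next to Drd2 in the genome, had 37 reads in all 5 pulldowns together (-3.95 ± 0.41). Plxdc1 was the weakest, at -1.29 ± 0.37, with 0.548 to 2.58 CPM in pulldowns and 2.97 to 5.89 CPM in inputs, and was not called without the cortex-marked animals (-0.81, adjusted p = 0.132). By animal, the median of the D2 list was -3.89, -3.30, -3.15, -3.76 and -3.87, so depletion was shallower in animals 3 and 9 than in the other 3. The remaining D2 gene of the list, Gpr52, was not analysed here.

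**Figure D1:**
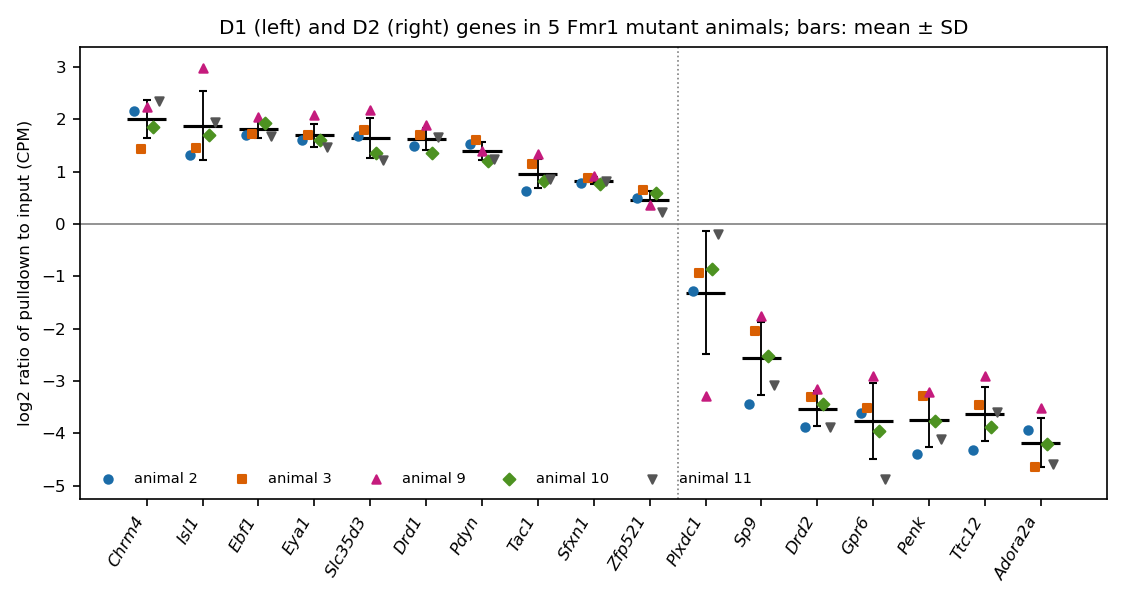
Log2 ratio of pulldown to input CPM (y axis) for each gene of the D1 and D2 lists (x axis), with 1 point per mutant animal, black bars for the mean of the 5 animals and whiskers for the SD. All points of the D1 genes lie above 0 and all points of the D2 genes below it.

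Across the transcriptome the pulldown and the input differed widely. Of 17311 genes tested, 8906 (51.4%) passed the adjusted p threshold of 0.05, 3977 (23.0%) higher in pulldowns and 4929 (28.5%) lower. These shares depend on level, and 8295 of the genes tested had a mean of at least 10 CPM. Of the protein-coding genes at that level, in quintiles by coding length, 19.5% to 61.6% were higher and 12.5% to 37.2% lower. The shares of all genes tested are therefore not matched in level or length to the lists below. The size of the change was not symmetric. Only 243 genes (1.40%) were called and at least 2-fold higher in pulldowns, while 3577 (20.7%) were called and at least 2-fold lower. Of the called genes, 7951 had the same direction in all 5 animals, 3546 of them higher and 4405 lower. In a separate count, which can overlap with the last, 113 of the called genes had no read in any mutant pulldown.

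The 15 highest folds among genes with a mean of at least 10 CPM fell to D1 markers, nuclear proteins and signalling enzymes. Besides the D1 markers Chrm4, Isl1, Ebf1, Eya1, Slc35d3 and Drd1, they held a set of proteins of the nucleus. Tnrc18, a chromatin-associated reader protein, headed the list at 69.1, 73.6, 151, 129 and 84.6 CPM in pulldowns against 15.5 to 25.8 CPM in inputs (log2 fold change 2.30 ± 0.21). Bahcc1, its paralog that binds methylated histone, followed at 2.11 ± 0.31, and the pulldown level varied from 19.1 to 57.4 CPM. Nup98, which encodes nucleoporins of the nuclear pore, was steadier, at 150 to 193 CPM in pulldowns and 42.4 to 47.6 CPM in inputs (1.93 ± 0.08). Bcor, a corepressor of Polycomb complexes, and Prr12, a nuclear protein linked to neurodevelopmental disorder, had log2 fold changes of 1.83 ± 0.13 and 1.81 ± 0.18. Both were lowest in the pulldown of animal 3, at 53.2 CPM for Bcor and 35.8 CPM for Prr12. Gse1, a component of histone demethylase complexes, stood at 1.69 ± 0.20, but 27.9% of its exon bases overlap other genes, and reads there cannot be assigned without strand. Hist1h4c, at 1.65 ± 0.18, is 1 of many near-identical histone H4 genes, and its value is uncertain for that reason.

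The signalling enzymes among the 15 were Kalrn and Prkcb. Kalrn encodes kalirin, a GTPase exchange factor that shapes dendritic spines, and lay at 745, 760, 1154, 967 and 914 CPM in pulldowns and 200 to 347 CPM in inputs (log2 fold change 1.95 ± 0.08). Prkcb encodes protein kinase C beta and was the most abundant of the 15, at 1744 to 2513 CPM in pulldowns and 604 to 695 CPM in inputs, 3.43-fold higher (1.78 ± 0.06, adjusted p = 1.9e-14). Neither gene's pulldown levels overlapped its input levels.

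Among genes with a mean of at least 10 CPM, the 15 lowest folds belonged to noncoding and mitochondrial RNAs, glia and blood. They were Bc1, Rn7sk, the mitochondrial genes mt-Rnr1, mt-Rnr2 and mt-Atp6 (1 pulldown read), the oligodendrocyte genes Mog, Mag, Aspa, Trf, Ttyh2 and Tmem63a, the prostaglandin synthase Ptgds, the microglial protease Ctss and the haemoglobin genes Hbb-bs and Hbb-bt. Of the nuclear-encoded genes at that level Bc1 was the furthest down, and some genes with fewer reads had lower folds. Bc1 is a short cytoplasmic RNA of rodent neurons, made by RNA polymerase III, that is carried into dendrites, encodes no protein and is known to repress the initiation of translation. It is shown here because it had the lowest fold of the nuclear-encoded genes among these 15. The transcript is that of GENCODE vM21 at chr7:144914470-144914637 on the plus strand of GRCm38/mm10, written with T for U, and the capitals mark an internal stretch in which at least 80% of the bases are A.
Bc1: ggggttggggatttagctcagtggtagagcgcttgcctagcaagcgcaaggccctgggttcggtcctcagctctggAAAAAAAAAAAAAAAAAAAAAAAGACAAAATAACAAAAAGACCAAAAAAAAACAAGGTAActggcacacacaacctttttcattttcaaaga
The capitals cover 60 of 168 bases, so the RNA has an A-rich tract of its own away from its 3′ end. Bc1 lay at 0.588, 0.728, 0.512, 0.674 and 0.492 CPM in pulldowns, 96 reads in all, and at 102, 86.3, 88.5, 186 and 116 CPM in inputs. It was 188-fold lower in pulldowns (log2 fold change -7.56 ± 0.15, adjusted p = 7.08e-18), and the per-animal log2 ratio ran from -7.98 to -6.77.

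Other small noncoding RNAs were lower too. Of the 9 tested on that list, 8 were lower in pulldowns, with a median edgeR fold change of -6.28. By animal, from log2 CPM with a prior count of 2, the list's median was only -4.93 to -3.81. Rn7sk, the 7SK RNA that holds the elongation factor P-TEFb in the nucleus, lay at 14.8 to 32 CPM in pulldowns and 1971 to 3125 CPM in inputs (-6.72 ± 0.26). Rmrp, the RNA of a ribonuclease that processes ribosomal RNA, had a log2 fold change of -4.92 ± 0.29, with 44.1% of its exon bases overlapping another gene. Rny1, a Y RNA bound by the Ro protein, had no read in any mutant pulldown and was at least 24.8-fold lower, on a floor of 3 reads over the group. The signal recognition particle RNA gene Rn7s1 had 3 pulldown reads in all, too few for a fold.

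The listed long noncoding RNAs showed the same direction at a smaller size. Of 23 listed members tested, 20 were lower in pulldowns and 1 higher, with a median of -1.81, and none was higher without animal 10 or 11, with another scaling (RLE), with a filter at a CPM of at least 1 or by DESeq2. Malat1, a nuclear RNA of speckles, lay at 890 to 1226 CPM in pulldowns and 4906 to 6986 CPM in inputs (-2.50 ± 0.13). Meg3, an imprinted RNA retained in neuronal nuclei and named after its value was seen, stood at -2.66 ± 0.09, and Snhg11, a host gene of small nucleolar RNAs, at -3.48 ± 0.15. Gas5, another such host gene whose spliced RNA is read by ribosomes at its start, was lower by less, at -1.62 ± 0.10, with 17.8% of its exon bases overlapping other genes. Over all annotated long noncoding types together, 504 of 1651 genes (30.5%) were lower and 54 (3.27%) higher, with a median of -0.74. The share lower is near the 28.5% of all genes tested, while the share higher is below their 23.0%. A small share higher was not particular to these types, since processed pseudogenes had 2.09%. None of these shares was matched for level. Protein-coding genes were split almost evenly, 3877 higher and 3977 lower of 14058.

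Genes shared by both kinds of projection neuron were higher in pulldowns by less than the D1 markers. Of 20 such genes 18 were higher and 1 lower, with a median of 0.75. Bcl11b, the transcription factor CTIP2, had the highest value at 1.41 ± 0.07, and Pde10a, the phosphodiesterase that clears cyclic nucleotides in these neurons, the next at 1.32 ± 0.07. Pde10a was also the most abundant gene of the list, at 3833 to 4835 CPM in pulldowns and 1476 to 2077 CPM in inputs. Ppp1r1b, the phosphatase inhibitor DARPP-32, and Arpp21, a related phosphoprotein, were higher by only 0.42 ± 0.06 and 0.36 ± 0.05. Ryr3, a calcium release channel, was the lower gene, at -0.56 ± 0.08. By animal, the median of the list was 0.673, 0.647, 1.05, 0.654 and 0.642, so that animal 9 stood above the other 4.

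The striatum is also divided into striosomes and matrix, compartments with different inputs. All 7 matrix genes were higher in pulldowns, with a median of 0.74. Gda, the guanine deaminase cypin, stood at 0.97 ± 0.07 and Calb1, the calcium buffer calbindin, at 0.75 ± 0.08. Of 9 striosome genes 4 were higher and 1 lower, with a median of 0.44. Tshz1, a zinc finger factor of striosomal D1 neurons, stood at 0.73 ± 0.11, and Nnat, a small membrane proteolipid, was the lower gene at -1.26 ± 0.16. Foxp2, a transcription factor listed for layer 6 of the cortex, is a gene of striatal projection neurons as well. It lay at 502 to 574 CPM in pulldowns and 180 to 257 CPM in inputs (1.33 ± 0.06).

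Neuropeptide genes lay in both directions. Of the 28 genes of neuropeptides, their processing and their receptors, 9 were higher and 13 lower, with a median of -1.22. Dynorphin and substance P, given above, were higher, and enkephalin was lower. Scg2, the granin secretogranin II, was higher by 0.94 ± 0.09. The interneuron peptides Npy and Sst stood at -4.62 ± 0.53 and -4.19 ± 0.37. Without the cortex-marked animals these were -5.36 and -5.04, and Npy was -5.26 without animal 9 alone. The processing enzymes went in opposite directions. Pcsk2, a prohormone convertase, was higher by 0.84 ± 0.05, and Cpe, the carboxypeptidase that trims the cut peptides, was lower at -1.17 ± 0.06. Oprd1, the delta opioid receptor for enkephalin, was lower at -3.04 ± 0.26.

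Downstream of the dopamine receptors, 33 of 50 genes of dopamine and cAMP signalling were higher and 8 lower, with a median of 0.37. Gnal, the G protein alpha subunit that couples Drd1 to adenylyl cyclase in the striatum, stood at 0.95 ± 0.06. Adcy5, the main striatal adenylyl cyclase, was higher by 0.85 ± 0.06, while its family member Adcy2 was lower, at -1.45 ± 0.23. Of the inhibitory alpha subunits, Gnai1 was higher by 0.38 ± 0.07 and Gnai2 lower at -1.30 ± 0.10. Ppp3ca, the catalytic subunit of calcineurin, which dephosphorylates DARPP-32, was the most abundant of the list and higher by 1.15 ± 0.04. Pde7b, another cAMP phosphodiesterase, was higher by 1.13 ± 0.07. Of the inhibitors of protein kinase A, Pkia was higher by 0.35 ± 0.06 and Pkib lower at -4.78 ± 0.76. Pkib had 6.97, 12.7, 18.5, 8.99 and 16.7 CPM in inputs and 0.0519, 1.03, 1.97, 0.0293 and 0.492 CPM in pulldowns, with a log2 fold change of -5.37 without animal 9 and -6.33 without the cortex-marked animals. Drd5, the other D1-class receptor, had 1 read in the 5 pulldowns and 117 in the inputs.

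Calcium and phosphoinositide signalling held contrasts within several gene families. Of 49 genes 35 were higher and 10 lower, with a median of 0.63. Among protein kinase C genes Prkcb came first, then Prkch at 1.37 ± 0.07, Prkca at 0.98 ± 0.08, Prkce at 0.96 ± 0.05 and Prkcz at 0.54 ± 0.07. The exception was Prkcd, at -3.56 ± 0.96, with 0, 1.97, 0.548, 0.352 and 0 CPM in pulldowns and 1.70 to 9.07 CPM in inputs. Its value was -2.94 without animal 2 and -5.08 without the cortex-marked animals. Camk2a and Camk2b, the calmodulin kinase II subunits of forebrain neurons, were higher by 0.79 ± 0.08 and 0.95 ± 0.06. Camk4, the nuclear calmodulin kinase, was higher by 1.17 ± 0.05.

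The receptors and scaffolds of calcium stores were split in the same way. Itpr1, the inositol trisphosphate receptor of projection neurons, lay at 1069, 1150, 1229, 1340 and 1200 CPM in pulldowns and 490 to 612 CPM in inputs (1.11 ± 0.06). Itpr2, a form known from astrocytes, lay at 0.294 to 2.27 CPM in pulldowns and 6.84 to 11.6 CPM in inputs (-3.73 ± 0.36, and -4.66 without the cortex-marked animals). Plcb1, the phospholipase that acts below group I metabotropic receptors, was higher by 1.23 ± 0.05, and Plcb3 and Plcb4 were lower, at -2.05 ± 0.31 and -1.64 ± 0.16. The Homer proteins tie those receptors to the stores. Homer1 lay at 563 to 690 CPM in pulldowns and 348 to 421 CPM in inputs (0.73 ± 0.06), and Homer2 at 2.34 to 12.5 CPM in pulldowns and 10.7 to 38.5 CPM in inputs (-1.91 ± 0.23). Homer3 had 4 pulldown reads, all in animal 9, beside 1.26 to 2.29 CPM in inputs, and was lower (-6.46 ± 0.96), a value that rests on that animal's pulldown.

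**Figure D2:**
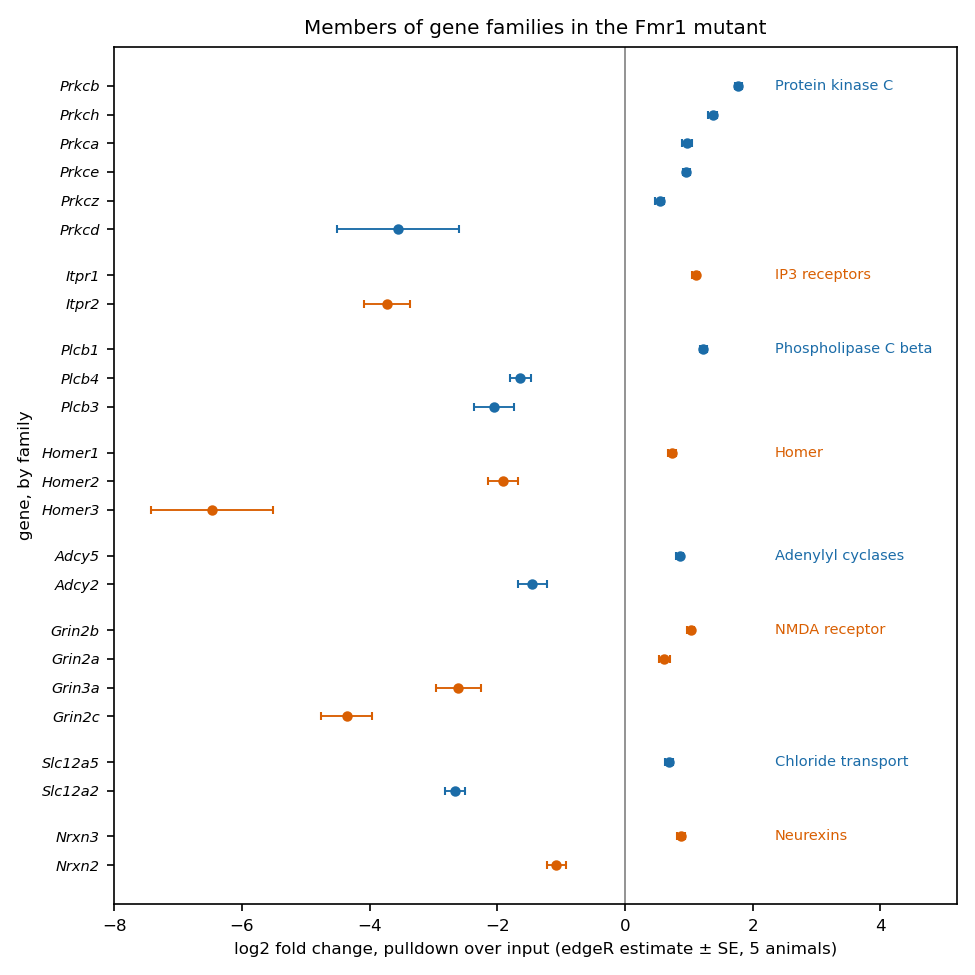
Log2 fold change of pulldown over input in the mutant (x axis) for members of 8 gene families (rows), with points for the edgeR estimate over the 5 animals and bars for its SE. The SE rests on a spread pooled over all 11 animals of the fit, wild type included. Filled points passed the adjusted p threshold of 0.05, and in each family members lie on both sides of 0, as Prkcb and Prkcd do.

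Glutamate receptors and postsynaptic scaffolds were higher in 24 of 43 genes and lower in 6, with a median of 0.37 and a mean of -0.01. Dlg3, the scaffold SAP102, was higher by 1.19 ± 0.07, and Dlgap2, a scaffold partner, by 1.01 ± 0.08. Of the NMDA receptor subunits, Grin2b and Grin2a were higher by 1.03 ± 0.06 and 0.62 ± 0.09, while Grin2c and Grin3a were lower, at -4.36 ± 0.39 and -2.61 ± 0.35 (Grin3a -3.36 without the cortex-marked animals). Gria2, the subunit that limits calcium entry through AMPA receptors, was higher by 0.62 ± 0.05. The kainate receptor gene Grik3 was lower, at -3.20 ± 0.63, and at -4.38 without the cortex-marked animals.

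Of the GABA genes 18 of 25 were higher and 5 lower, with a median of 0.42 and a mean of -0.04. Gad2, which makes GABA, was higher by 0.90 ± 0.06, Slc32a1, which loads it into vesicles, by 0.81 ± 0.10, and Gphn, the gephyrin scaffold of inhibitory synapses, by 0.82 ± 0.06. Of the chloride transporters, Slc12a5, the neuronal exporter KCC2, was higher by 0.69 ± 0.06, and Slc12a2, the importer NKCC1, lower at -2.66 ± 0.16. Slc6a11, a GABA transporter known from astrocytes, was lower at -3.66 ± 0.32. Gabrg1, a receptor subunit, was lower at -2.49 ± 0.20.

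Ion channels, adhesion molecules and release proteins had medians between 0.21 and 0.43. Potassium channel genes were higher in 24 of 53 and lower in 15 (median 0.21, mean -0.22), with Kcnd2, the A-type channel of dendrites, at 1.20 ± 0.07, Kcna4 at 1.08 ± 0.07 and Kcnj10, the inward rectifier of astrocytes, at -4.10 ± 0.46. The share of potassium channel genes lower is near the 28.5% of all genes tested. Sodium and calcium channel genes were higher in 16 of 25 and lower in 1. Scn2a, an axonal sodium channel, stood at 1.06 ± 0.06 and Scn4b, its striatal beta subunit, at 0.93 ± 0.07, and the lower gene was Scn9a at -1.40 ± 0.35. Synaptic adhesion genes were higher in 32 of 45 and lower in 5. Of the neurexins, Nrxn3 was higher by 0.88 ± 0.06, and Nrxn2 was lower at -1.07 ± 0.15. Vesicle release genes were higher in 26 of 42 and lower in 5, with the priming factor Unc13a at 0.96 ± 0.09 and the active zone protein Pclo at -1.09 ± 0.07. Without the cortex-marked animals 3 release genes were lower.

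Genes of chromatin regulators and nuclear cofactors were higher in 41 of 60 and lower in 8, with a median of 0.39. Below Tnrc18, Bahcc1, Bcor and Prr12, the most abundant member Atrx, a chromatin remodeller mutated in an intellectual disability syndrome, was higher by 0.94 ± 0.05. Ezh2, the Polycomb methyltransferase, was lower at -1.95 ± 0.14, and Chd7, a remodeller, at -1.02 ± 0.18.

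Among mRNAs listed as bound by FMRP, written from memory of published binding and not a copy of a published table, 113 of 166 tested were higher in pulldowns and 26 lower, with a median of 0.46. Of all genes tested, 23.0% were higher and 28.5% lower. Of protein-coding genes at a mean of at least 10 CPM, the quintile with the longest coding sequence had 61.6% higher and 15.1% lower. Its median was 0.39, near that of the FMRP-bound list. Values of the list ran from Tnrc18, Kalrn, Bcor and Prkcb at the top to Mbp, the myelin basic protein mRNA of oligodendrocytes, at -3.33 ± 0.09 and Plxnb1, a semaphorin receptor, at -3.22 ± 0.25. Map1b, a microtubule protein whose mRNA is a classic FMRP target, was the most abundant member and higher by 0.69 ± 0.08. Partners of FMRP were higher in 15 of 23 genes and lower in 5. Cyfip2 and Cyfip1, paralogs that bind FMRP and the WAVE complex, went opposite ways, at 0.96 ± 0.07 and -0.41 ± 0.13, though Cyfip1 was not called without animal 11 (-0.27, adjusted p = 0.0824). Ago2 of the microRNA machinery and Caprin1 of RNA granules were higher by 0.94 ± 0.11 and 0.83 ± 0.05, and Stau2 and Tdrd3, RNA granule proteins, were lower at -0.58 ± 0.08 and -0.56 ± 0.11.

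Fmr1 was lower in the mutant pulldowns than in their inputs. It lay at 10.8, 11.3, 8.15, 10.4 and 9.23 CPM in pulldowns and 14.2, 11.1, 13.5, 15 and 11.9 CPM in inputs, a log2 fold change of -0.40 ± 0.11 (adjusted p = 0.00441). Animal 3 was the exception among the 5, with near equal levels and a log2 ratio of 0.03.

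Coding length, merged over the annotated transcripts of a gene, moved with the pulldown. The protein-coding genes tested were divided into quintiles by coding length, the shortest with at most 798 bases and the longest with at least 2660. The share called higher in pulldowns was 11.5%, 20.2%, 27.7%, 37.1% and 41.5% from the shortest to the longest quintile, and the share called lower was 40.0%, 29.6%, 24.2%, 22.8% and 24.9%. The median log2 fold change went from -0.30 to 0.17. Among genes with a mean of at least 10 CPM, cut into quintiles of their own, the median went from -0.12 to 0.39. From the shortest to the longest of these, the share called higher went from 19.5% to 61.6% and the share called lower from 37.2% to 15.1%. Across 14058 genes, which are not independent replicates, the Spearman correlation of coding length and fold change was 0.21. Of the 166 FMRP-bound genes, 147 lay in the longest quintile, so the count for that list and the length of its members cannot be told apart here.

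**Figure D3:**
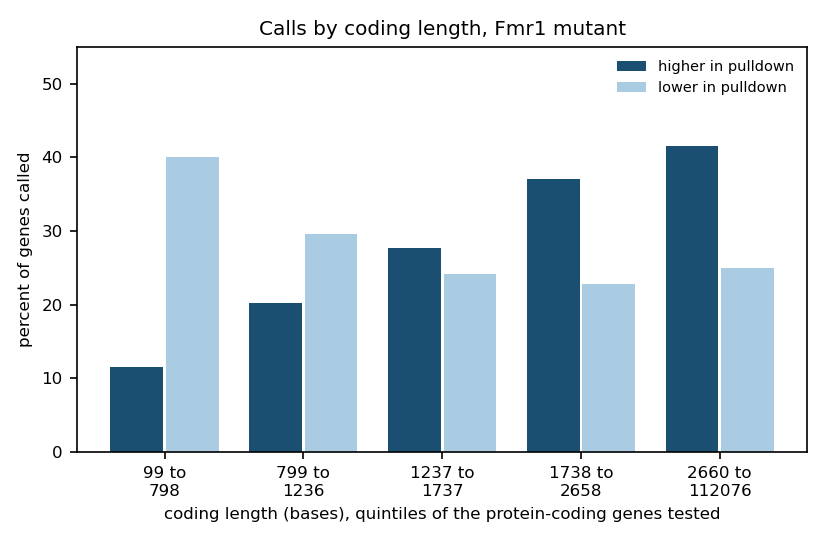
Percent of protein-coding genes called higher (dark bars) and lower (light bars) in pulldown than in input, y axis, by quintile of coding length, x axis. The percent called higher goes from 11.5 in the shortest quintile to 41.5 in the longest.

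The ribosomal proteins are short, abundant and made from mRNAs whose translation depends on mTOR. Of 79 cytosolic ribosomal protein genes 78 were lower in pulldowns and none higher, with a median of -1.21. These mRNAs typically begin with a C followed by an unbroken run of C and T, the motif called TOP. The first bases are shown for Rps27 and Rpl15, the lowest and the least changed of the called members, and for Rpl37 and Rps24, which were also below the family's median, to set windows with and without a long run side by side. They are RefSeq start sites on GRCm38.p6 with 10 bases before the start and 20 after it. Capitals mark the longest run of C and T in each window, the earliest where runs tie, as in Rpl37.
Rps27: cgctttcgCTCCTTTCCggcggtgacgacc
Rpl37: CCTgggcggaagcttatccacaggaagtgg
Rps24: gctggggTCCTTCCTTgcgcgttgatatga
Rpl15: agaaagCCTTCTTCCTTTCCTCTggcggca
The windows lie at chr3:90213629-90213658 on the minus strand, chr15:5116603-5116632 on the plus strand, chr14:24490668-24490697 on the plus strand and chr14:18270967-18270996 on the minus strand. Rps27, a small subunit protein, was the lowest of the family, at 137, 187, 86.6, 146 and 148 CPM in pulldowns and 487, 513, 377, 695 and 668 CPM in inputs (-1.97 ± 0.14). Rpl15, a large subunit protein, was changed least among the called genes, at 104 to 153 CPM in pulldowns and 139 to 152 CPM in inputs, which overlap (-0.23 ± 0.07, adjusted p = 0.0131, and -0.16, adjusted p = 0.0924, without animal 10). It has the longest run of C and T of the 4 windows, 17 bases, beside 9 in Rps27 and Rps24 and 3 in Rpl37. Most members with such a window lack a run of at least 8 bases.

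A run of at least 8 C or T in that 30-base window was found in 21 of the 58 ribosomal protein genes with a RefSeq window (36.2%) and in 11.2% of all 27025 promoters in the table. Only the strand of the gene was read, and a start annotated a few bases off would miss the run. The run could lie anywhere in the window, the 10 bases before the start included. The split therefore does not separate mRNAs with the TOP motif from those without it. The median log2 fold change was -1.01 for ribosomal protein genes with the run and -1.25 for those without. Rpl10a, whose protein carries the tag, lay at 33.8, 27.9, 21.5, 31.6 and 30.4 CPM in pulldowns and 39.6, 35.3, 23.8, 40.8 and 41.3 CPM in inputs (-0.30 ± 0.11, adjusted p = 0.0225). Each pulldown was below its own input, but the call ended without animal 3, 10 or 11, with adjusted p of 0.0579, 0.0645 and 0.0816. Reads of the native gene and of the tagged transgene cannot be told apart in these counts. Other members named for their level or fold were Rps20 at -1.81 ± 0.11, Rpl37 at -1.74 ± 0.11, Rps24 at -1.63 ± 0.10 and Rpl4 at -0.63 ± 0.06. Many of these genes have near-identical pseudogenes, so single values are uncertain where reads could be split.

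Translation factors were split evenly, with 16 of 49 genes higher, 16 lower and a median of 0.03. The share lower is close to the 28.5% of all genes tested. The scaffold of the cap-binding complex Eif4g1 was higher by 0.94 ± 0.07, and the elongation factor subunits Eef1b2 and Eef1g were lower, at -1.07 ± 0.10 and -0.81 ± 0.07. Eef1a2, the elongation factor form of mature neurons, was higher by 0.57 ± 0.08, while Eef1a1, the form of other cells, was lower at -0.44 ± 0.07. In the mTOR pathway 13 of 27 genes were higher and 5 lower, and 3 were lower without animal 3, 9 or 11. Rictor, which defines the mTORC2 complex, was higher by 0.85 ± 0.08, the kinase Pdpk1 by 0.75 ± 0.05 and Tsc2, which restrains mTORC1, by 0.54 ± 0.08. Eif4ebp2, a repressor of the cap-binding protein, was lower at -0.75 ± 0.12.

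Mitochondrial genes differed by where they are encoded. All 12 tested mRNAs of the mitochondrial genome, which are translated by mitochondrial ribosomes that the tag does not mark, were lower, with a median of -4.68. mt-Co1, a cytochrome oxidase subunit, lay at 510 to 1254 CPM in pulldowns and 9670 to 18822 CPM in inputs (-4.08 ± 0.24). The mitochondrial ribosomal RNA mt-Rnr2 lay at 2181, 2959, 4631, 2485 and 2797 CPM in pulldowns and at 209930 to 559220 CPM in inputs, with the highest value in animal 10, and its log2 fold change was -6.65 ± 0.30. The other, mt-Rnr1, stood at -6.41 ± 0.28. mt-Co2 and mt-Co3 had no read in any mutant pulldown and were at least 331-fold and 112-fold lower. Values were very uneven between mRNAs of this 1 genome, with log2 fold changes from -11.2 to -3.72. mt-Atp6 had a mean of only 14.2 CPM over the mutant libraries, far below mt-Co1. The reason was not tested, so the single values of mt-Atp6, mt-Co2 and mt-Co3 are uncertain. Nuclear-encoded respiratory chain and ATP synthase genes were lower in 32 of 74 and higher in 7, with a median of -0.16. Their larger subunits Atp5a1 and Ndufs1 were higher by 0.57 ± 0.05 and 0.54 ± 0.06, and the small subunits Atp5e and Cox7c were lower at -0.80 ± 0.09 and -0.68 ± 0.09. Of 31 proteasome genes 10 were higher and none lower, Psmd1 by 0.60 ± 0.07.

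Immediate early genes, which neurons switch on with activity, were higher in 10 of 20 and lower in 2, with a median of 0.43, and 1 was lower without animal 2, 10 or 11 or with the filter at a CPM of at least 1. Egr1 lay at 703, 1106, 1170, 1615 and 1071 CPM in pulldowns and 343, 649, 701, 685 and 478 CPM in inputs (0.99 ± 0.07), and Egr2 and Egr3 were higher by 1.17 ± 0.12 and 1.06 ± 0.07. Jun was lower at -1.09 ± 0.19. Fos and Arc, named after their values were seen, were not called, with log2 fold changes of 0.20 ± 0.13 (adjusted p = 0.239) and 0.02 ± 0.15 (adjusted p = 0.911). Their levels differed between animals in both libraries alike. Fos lay at 1.87, 18.1, 20.5, 27.2 and 17.2 CPM in pulldowns and 2.02, 16, 16.5, 22 and 14.6 CPM in inputs. Arc lay at 15.8 CPM in the pulldown of animal 2 and 82.7 to 152 CPM in the others, and at 27.9 CPM in its input and 64.8 to 107 CPM in the others. Animal 2 was the lowest of the 5 for Fos, Arc and Egr1 in both libraries.

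Smaller groups are given beside the shares of all genes tested, 23.0% higher and 28.5% lower. These shares are not matched to the groups in level or coding length. Protein-coding genes with a mean of at least 10 CPM were higher in 19.5% to 61.6% by quintile of coding length. Of 43 cytoskeletal genes 21 were higher and 9 lower. The neurofilament genes Nefm and Nefl were higher by 1.39 ± 0.10 and 1.18 ± 0.09, with 19.2% and 32.8% of their exon bases shared with other genes, and Stmn1, a tubulin-binding protein of growing cells, was lower at -2.50 ± 0.39 (-3.17 without the cortex-marked animals). The motor Kif5a lay at 350 to 647 CPM in pulldowns and 802 to 1846 CPM in inputs (-1.44 ± 0.09). Genes of cholesterol synthesis and uptake were lower in 9 of 20 and higher in 1, or 2 without animal 3, with Srebf1, a regulator of lipid synthesis, at -2.92 ± 0.33. Genes of endoplasmic reticulum folding and translocation were higher in 8 of 31 and lower in 7, with 5 higher without the cortex-marked animals and 4 lower without animal 10. Both shares are near those of all genes. Interferon response and antigen presentation genes were lower in 13 of 16, with B2m, the light chain of class I molecules, at -3.49 ± 0.45. The list's median was -2.57. It was -1.93 without animal 2, -3.20 without animal 3 and -3.80 without the cortex-marked animals, where B2m stood at -4.28. Of 20 mRNAs known to lie in dendrites 11 were higher and 6 lower, the latter a share near that of all genes, and 3 were lower without the cortex-marked animals.

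Genes of cells other than projection neurons were lower in pulldowns to different degrees. Microglia had the lowest median of the cell type lists, -6.01, with all 14 genes lower. Cx3cr1, the fractalkine receptor, had 14 pulldown reads in all (-6.74 ± 0.51), and Aif1 was the least depleted at -1.67 ± 0.36. All 15 oligodendrocyte genes were lower, with a median of -5.00, from Mog, a myelin surface protein at 0.171 to 1.23 CPM in pulldowns and 43.2 to 81.7 CPM in inputs (-6.27 ± 0.41), to Mbp at -3.33. Of oligodendrocyte precursor genes 8 of 9 were lower, with Olig2 at -5.62 ± 0.45 and Pdgfra at -3.91 ± 0.51. Of 15 astrocyte genes 14 were lower, with a median of -3.68, among them the glutamate transporter Slc1a2 at -3.39 ± 0.25 and Gfap at -3.90 ± 0.21. The remaining astrocyte gene was Slc4a4, a bicarbonate transporter, which was higher by 0.42 ± 0.07.

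Interneuron genes were lower as well. All 7 cholinergic genes tested were lower, with a median of -4.89, Chat, which makes acetylcholine, on 49 pulldown reads at -4.74 ± 0.52 and Slc5a7, the choline transporter, at -4.89 ± 0.36. Without the cortex-marked animals Chat stood at -5.57. Among other interneuron genes 10 of 12 were lower, with a median of -3.85. Pvalb, the marker of fast-spiking cells, stood at -5.03 ± 0.52, at -5.64 without animal 9 and at -6.91 without the cortex-marked animals, and Nos1, the nitric oxide synthase, at -2.31 ± 0.16. Vessels were measured less well. Endothelial genes were lower in 4 of 12 and mural or fibroblast genes in 5 of 12, with the others not called, and 2 endothelial genes were lower without animal 2. The share of endothelial genes lower is close to the 28.5% of all genes tested. Rgs5, a gene of pericytes, stood at -3.33 ± 0.38. Ependymal and choroid plexus genes were lower in 6 of 8 tested, and all 5 red blood cell genes were lower, with Hbb-bs, a haemoglobin gene with a near-identical neighbour, at -5.39 ± 0.21.

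By animal, the depletion of microglial, oligodendrocyte and astrocyte genes was shallower in animals 3 and 9. The microglial median was -5.87, -4.64, -4.61, -5.79 and -6.02, the oligodendrocyte median -5.26, -4.78, -4.14, -4.95 and -5.23, and the astrocyte median -4.06, -3.22, -3.40, -3.68 and -3.91. The direction was the same in all 5 animals for each of these lists. Medians of edgeR fold changes are computed otherwise than these ratios by animal and are not on the same scale. They were -6.01, -5.00 and -3.68 in the main fit and -6.51, -5.29 and -3.90 without the cortex-marked animals. The D1 median by animal, in contrast, was 1.51, 1.53, 1.97, 1.35 and 1.36, with animal 9 the highest. The D1 median of edgeR fold changes was 1.63 in the main fit and 1.46 without the cortex-marked animals.

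**Figure D4:**
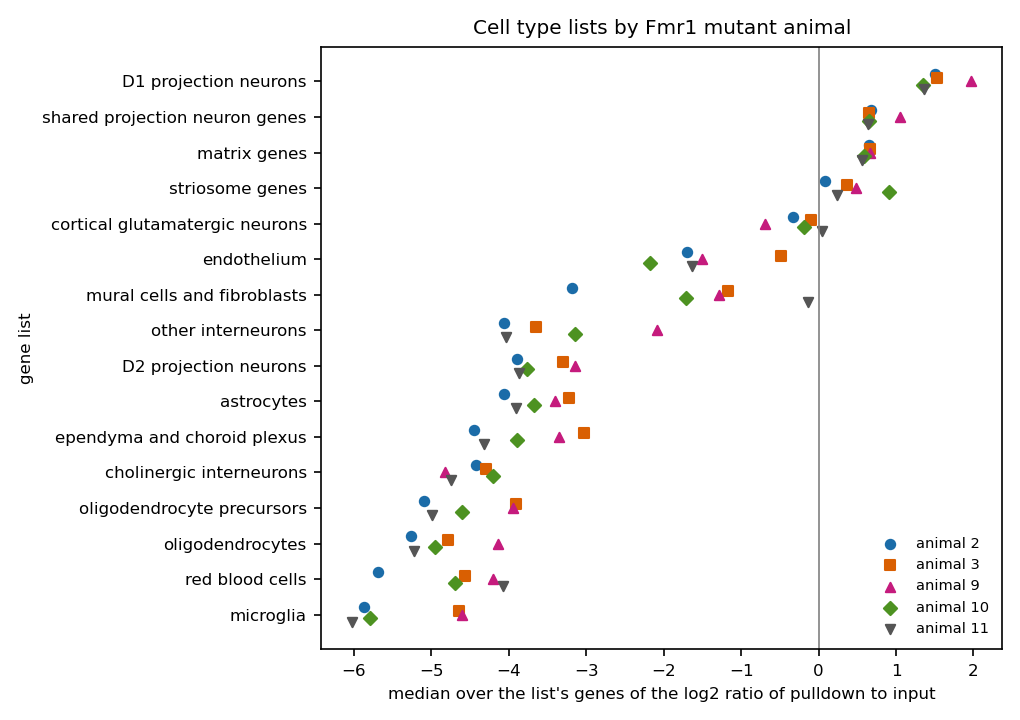
Median log2 ratio of pulldown to input (x axis) over the genes of each cell type list (rows), with 1 symbol per mutant animal. D1, shared, matrix and striosome genes lie above 0 in all 5 animals. Glial, ependymal, red blood cell, D2 and interneuron lists lie well below 0, with animals 3 and 9 nearest to 0 for microglia, oligodendrocytes and astrocytes.

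Genes of cortical excitatory neurons marked the same animals. Slc17a7, the vesicular glutamate transporter of the cortex, lay at 1.81, 48.0, 113, 1.12 and 2.77 CPM in inputs and at 0.346, 33.0, 60.9, 0.469 and 0.123 CPM in pulldowns. Tbr1, a transcription factor of deep cortical layers, lay at 0.996, 23.7, 97.9, 0.822 and 0.495 CPM in inputs and at 0.883, 31.2, 61.4, 1.08 and 0.123 CPM in pulldowns. Animals 3 and 9 were thus far above the other 3 in both libraries for both genes, so that cortical RNA was present in their pulldowns as well as in their inputs. In animal 3 the log2 ratio of Tbr1 was 0.40, while that of Slc17a7 was -0.54.

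Over the list of cortical glutamatergic genes 3 of 12 were higher, 2 lower and 7 not called, with a median of -0.78. The share higher is near the 23.0% of all genes tested. By animal, from log2 CPM with a prior count of 2, the median of this list was -0.331, -0.0939, -0.691, -0.191 and 0.0464. Each lay above the edgeR median. The number lower was 1 without animal 9 or 10, 3 by DESeq2, and 5 with limma-voom or with no filter on low counts. Slc17a7 was called lower (-1.30 ± 0.39, adjusted p = 0.0148), at -2.51 without the cortex-marked animals, and Tbr1 was not called (-0.17 ± 0.22). Of the layer lists, upper layer genes were higher in 5 of 9 and lower in 3, layer 5 genes higher in 3 of 7 and lower in 4, and layer 6 genes higher in 3 of 10 and lower in 1, with 2 of these lower without animal 9, by DESeq2 or with limma-voom and none without the cortex-marked animals. Several of these, Foxp2, Calb1 and Tle4 among them, are also expressed by striatal projection neurons. The part of the cortical signal in the shallower depletion of D2 and glial genes was not tested. Over all genes the fit without the cortex-marked animals called 3598 genes higher and 4171 lower.

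**Figure D5:**
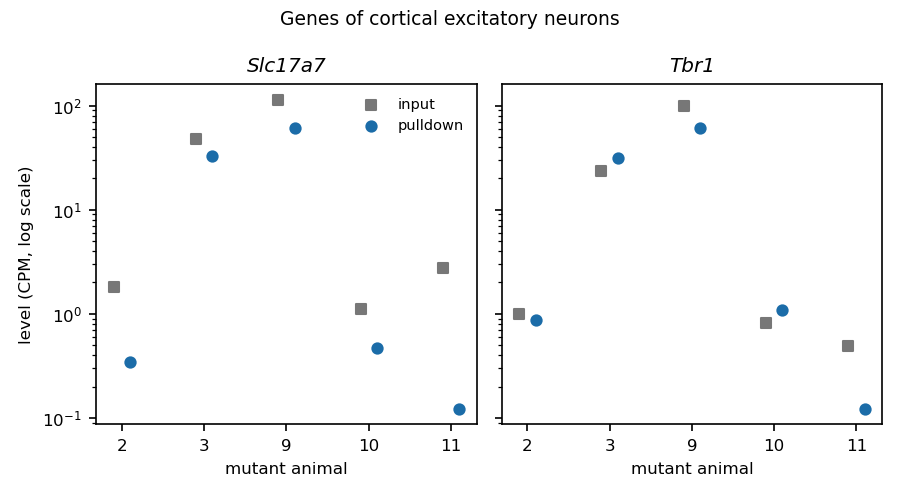
Levels of Slc17a7 and Tbr1 (y axis, CPM on a log scale) in the input and the pulldown of each mutant animal (x axis). Animals 3 and 9 reach 23.7 to 113 CPM in both libraries, and the other 3 animals stay at or below 2.77 CPM.

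The ratio of pulldown to input was last compared between genotypes, by the interaction of genotype and assay in the same fit. No gene passed (0.00% of 17311 called by edgeR's quasi-likelihood test), and 777 genes (4.49%) had an unadjusted p under 0.05. limma-voom called none, with 1007 genes at an unadjusted p under 0.05. DESeq2 called 5 genes, Fmr1, Synj2, Lgi3, Agbl1 and Grb14, with 937 genes at an unadjusted p under 0.05. These 5 were also the genes with the smallest p in edgeR. The log2 ratio of Fmr1 was -0.40 in the mutant and 0.43 in the wild type. Synj2, a phosphoinositide phosphatase, stood at -1.57 and -0.55, Lgi3, a secreted leucine-rich protein, at -3.19 and -1.92, and Grb14, an adaptor of the insulin receptor, at -2.59 and -1.62. Agbl1, a carboxypeptidase that acts on tubulin, stood at 2.0 and -1.10, on 0.183 to 2.71 CPM in the mutant libraries. The medians of the D1 list were 1.63 in the mutant and 1.29 in the wild type, and those of the D2 list -3.74 and -3.76. For microglia they were -6.01 and -5.10. The differences between these medians were not tested, and a low count of calls does not show that the genotypes were alike.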

How the data were processed

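RNA sequencing libraries were made from ribosome pulldowns and from input lysate of mouse striatum, and the 10 mutant libraries were analysed with the 12 wild-type libraries in the same fit. What the authors deposited are unnormalised counts, whole numbers for 55341 gene symbols, made with STAR and featureCounts on mm10 per the submitters' processing notes, whose versions and settings are not given in the sources used here. The kit did not mark strand, per the labels' protocols, so reads of overlapping genes on opposite strands cannot be told apart. Of the genes named, Agbl1, Cyfip1, Drd5, Gas5, Gse1, Homer3, Nefl, Nefm, Penk, Ppp1r1b, Rmrp, Rn7s1, Slc32a1 and Trf share at least 10% of their exon bases with another gene, and their values are less certain. The labels name polyA RNA as the molecule, while mitochondrial ribosomal RNA took a large share of the input counts.

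From these counts edgeR 4.0.16 in R 4.3.3 fitted 1 robust quasi-likelihood model over 22 libraries with a term for each of the 11 animals, which pairs pulldown and input of 1 lysate, and an assay effect for each genotype (9 residual degrees of freedom). Libraries were scaled by TMM, low genes removed by filterByExpr, and p-values adjusted by Benjamini and Hochberg over the 17311 genes left, at a threshold of 0.05. Values by animal are differences of log2 CPM with a prior count of 2, and levels are CPM. The pairing was checked: over 8295 genes the deviation of a mutant pulldown from its group correlated with that of its own input at 0.306 to 0.519, and its own input gave the highest correlation in 5 of 5 animals. Nothing in the labels says more of how the animals relate. The p-values measure the spread of the pulldown to input ratio between animals of the same genotype, pooled over all 11 animals. That spread was moderated across genes. Each SE is the size of the fold change divided by the square root of the test's F statistic, so it rests on the same pooled spread.

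Gene positions, types, lengths and overlaps came from GENCODE vM21 (GRCm38/mm10), in which all 55341 symbols were found, and start sites from RefSeq. In simulated counts with 50 genes changed at each size, the paired comparison of pulldown and input called 24% of those at a log2 change of 0.5, 52% at 1, 60% at 2 and 84% at 3, with 7 false calls of 117 among 16793 genes. Far fewer genes changed there than were called in the data, 8906 of 17311. The adjusted p depends on that number, so these rates do not carry over to the data.

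The text names Fmr1, the D1 and D2 genes, Rpl10a, the 15 largest called folds in each direction at a mean of at least 10 CPM, members of lists of 15 or fewer, the extremes and most abundant members of longer lists and paralogs in pathway lists. The comparison, the lists and the rules were chosen with earlier results of these data known. Alternatives were RLE scaling, DESeq2 1.42.0, limma-voom 3.58.1, other filters on low counts, no mitochondrial ribosomal RNA, no animal term, the mutant libraries alone, and leaving out animals. The authors' tables of mutant against wild type were not used here. A few genes are not reported here.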

Additional observations from a re-analysis of the deposited data

Results flagged for a closer look

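The log2 ratio of pulldown to input was examined for single animals among the 5 mutants, in 46 list medians and 177 genes, for a lone value far from the other 4 relative to the whole range. Of these 223 groups, 12 (5.38%) had such a value, where chance gives about 5%. Animal 9 held 5 of the 12. In it the median of shared projection neuron genes was 1.05, with the others at 0.642 to 0.673, Arpp21 was 0.669 (others 0.224 to 0.329) and Ppp1r1b was 0.814 (others 0.268 to 0.390). Nefm was 0.699 in animal 9 (others 1.44 to 1.68) and Pcsk2 was 0.666 (others 0.858 to 0.924).

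In animal 3, Prr12 was 0.630 beside 1.98 to 2.26 in the others, Plcb3 was -2.27 beside -1.96 to -1.89, and Mag was -8.21 beside -5.64 to -5.35. In animal 2, Egr3 was 1.25 beside 0.986 to 1.06, and Olig2 was -6.75 beside -4.99 to -4.76. Grin2b was 1.16 in animal 10 beside 0.976 to 1.02, and Slc12a2 was -3.34 in animal 11 beside -2.64 to -2.37.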

How the results depend on the processing

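The count of genes that differed between pulldown and input in the mutant, 8906, stayed within 1.5 times of itself under all 14 alternatives. Leaving out 1 mutant animal gave 8072 to 8507 genes, of which 3640 to 3856 were higher and 4429 to 4651 lower. Without the animal term, that is without pairing pulldown and input (no replicate block), 8188 genes were called, 3610 higher and 4578 lower. The median log2 fold change of all genes was -0.11, -0.16 with RLE scaling and -0.27 with no filter on low counts. For the difference between genotypes, with 0 genes in the main fit, 34 genes were called with no filter on low counts, 5 by DESeq2, and 0 to 1 when 1 mutant animal was left out, the 1 without animal 3.

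For the 177 genes named and tested, 2461 of 2476 values under the alternatives kept their direction and side of the threshold. The sign turned for genes that were not called. Arc was -0.0198 with RLE scaling, -0.00575 with a CPM of at least 1, -0.0232 with DESeq2 and between -0.0985 and 0.223 when 1 animal was left out, and Tbr1 was between -0.415 and 0.0437 when 1 animal was left out. Without the animal term Slc17a7 (-0.82, adjusted p = 0.745) and Rpl10a (-0.32, adjusted p = 0.0683) were not called, 3 genes of endoplasmic reticulum folding were higher in place of 8, 3 release genes and 3 dendritic mRNAs were lower in place of 5 and 6, no cortical glutamatergic gene was lower in place of 2, 1 immediate early gene was lower in place of 2, no layer 6 gene was lower in place of 1, and no listed long noncoding RNA was higher in place of 1. Counts of other lists moved as well. Without the term 19 potassium channel genes were higher in place of 24 and 10 lower in place of 15. Of the neuropeptide list 6 were higher in place of 9 and 9 lower in place of 13, and 8 other interneuron genes were lower in place of 10. The animal term changed the call of no other named gene. Of 713 list and length medians under the alternatives, 685 moved by less than the SD over animals. The neuropeptide median was -0.60 with a CPM of at least 1. Depth limits genes with few pulldown reads, whose folds carry the widest errors.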
